A study of Mus musculus with 4 samples.

Results

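The genes described here are those of 3 families of calcium-dependent and sugar-binding proteins, the S100 proteins, the annexins and the galectins, with the galectin-3 binding protein Lgals3bp. Members were matched by symbol, and 33 of the 16545 symbols in the table of mouse MLL-AF9 leukaemic cells analysed here matched: 13 S100 genes, 10 annexins, 9 galectins and Lgals3bp. Each member had 1 RefSeq transcript in the table. The cells, which carry the fusion oncogene MLL-AF9 of acute myeloid leukaemia, came from bone marrow of mice of strain C57BL/6 and were grown in liquid culture. All samples shared the genotype Ring1a-/-;Ring1bf/f Cdkn2a-/-, which lacks RING1A and the tumour suppressor locus Cdkn2a and carries floxed alleles of RING1B. Polycomb repressive complex 1 (PRC1) depends on RING1A or RING1B to ubiquitinate histone H2A at silenced genes. The series title poses the question of PRC1's role in leukaemic cell identity. The 2 control samples received EtOH (ethanol) for 72 h and the other 2 received OHT (in common usage hydroxytamoxifen, which activates recombinases that delete floxed alleles) for 72 h. The labels name neither the recombinase nor its driver. They also do not say whether 2 samples of a group were separate cultures or animals, so a p-value here reflects the spread between samples that may be technical repeats. Cells given OHT but lacking floxed alleles were not analysed here, so effects of OHT itself and of the deletion cannot be told apart.

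S100 proteins are small EF-hand calcium sensors that act as dimers, and most of their genes lie in a cluster beside genes of the epidermal barrier. S100A8 and S100A9 form calprotectin, a major cytosolic protein of neutrophils and monocytes that acts as an alarm signal when released. Annexins bind acidic phospholipids such as phosphatidylserine in the presence of calcium, and several work in complexes with S100 proteins, such as ANXA2 with S100A10 and ANXA1 with S100A11. Galectins bind beta-galactoside sugars on glycoproteins, and galectin-3 is a classical surface antigen of macrophages.

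The table holds the authors' means of normalised reads for each group. Every mean solved to whole reads of 2 libraries, called A and B within a group without a link to the labels' replicate numbers. Their totals ranged from 3841243 to 6255320 reads. Values per library below are solved reads divided by the library's size factor ("normalised reads"), and the authors' means lie above them by 1.07 (EtOH) and 0.978 (OHT), because 1 read had been added to every count. Rnf2, the gene of RING1B, was listed at 636 with EtOH and 757 with OHT in the authors' deposited table (adjusted p = 1). The sources used here do not state which exons OHT removes, so that count over the whole transcript does not check the labels. The authors' deposited table gave Ring1, the gene of RING1A, means of 68.3 (EtOH) and 122 (OHT), and the 2 Cdkn2a transcripts means of 49.8 and 48.5 and of 29.9 and 31.6. Reads of both genes, which the genotype lacks, were thus present in both groups, and their position within the genes is not given in the sources used here.

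By the authors' deposited table, 2 of the 33 members rose and none fell (adjusted p under 0.05). These were S100a4 (7.47-fold) and Lgals3bp (4.30-fold). Over all transcripts in the authors' deposited table, 5.48% were called, 3.62% as higher with OHT and 1.85% as lower, so the 2 of 33 members lie near the background. Limma-voom on the solved reads, which tested 22 of the members, called 3 higher and none lower, where 15.2% of all tested transcripts were called, 9.72% higher and 5.49% lower. The added member was Anxa1. Of the 15 members with a mean of at least 100, 2 rose in the authors' deposited table, where 8.98% of such symbols were called and 4.83% rose. Of these 15, 13 had a positive log2 fold change, with a median of 0.41 against -0.14 for all symbols at that level in the authors' deposited table. By the authors' deposited table, 3 members passed at a threshold of 0.1 (7.31% of transcripts did) and 2 at a threshold of 0.01 (3.29%). Of the 11 members that limma-voom did not test, 5 had at most 3 reads in each group (S100b, S100a14, S100a16, Lgals7 and Lgals12), and counts this low cannot show a change. The plot of reads by library shows 6 S100 genes, 6 annexins and Lgals1 above 100 normalised reads in every library, while each other member was under 100 in at least 1 library.

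Both OHT libraries lay above both EtOH libraries in 16 members and below them in 5, and 12 overlapped. These counts include members with too few reads to show a change, such as S100a16 (3 and 1 reads), counted as below. Over all transcripts the groups did not overlap in 51.0%, with OHT above in 26.4% and below in 24.6%. Summed over the S100 genes, normalised reads were 2299 and 2957 in the EtOH libraries and 3152 and 3393 in the OHT libraries. The annexin sums were 6630 and 6435 with EtOH and 7668 and 8583 with OHT. The galectin sums were 923 and 1272 with EtOH and 805 and 1129 with OHT, so the galectin groups overlap while the other sums are higher in both OHT libraries.

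The members called depended on the limma-voom setting beyond S100a4 and Lgals3bp, which were called in each. Anxa1 and Anxa4 were added with total-read scaling and with upper-quartile scaling, where 14.6% and 15.7% of all transcripts were called. Without a read filter Anxa1, Anxa4 and Anxa5 were added (13.5% of transcripts called). With a filter of 50 reads, with 1 transcript per symbol and with reads summed per symbol, Anxa1 alone was added, at backgrounds of 16.2%, 15.8% and 15.7%. Without EtOH library A, where the background was 23.6% in all and 9.48% lower, Anxa4, Anxa5 and Lgals8 were added as higher and Lgals4 as lower. Leaving out EtOH library B (13.3%) or OHT library B (12.5%) added Anxa1, and leaving out OHT library A (8.18%) added Lgals2.

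**Figure D1:**
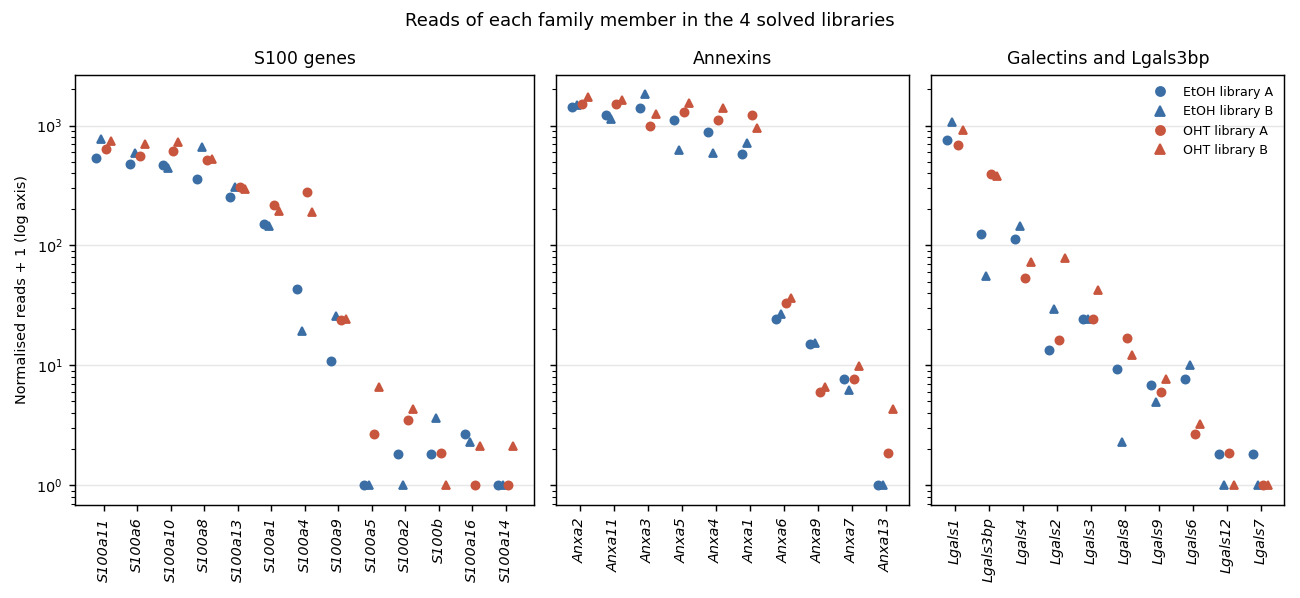
Normalised reads plus 1 (log axis) of each member in the EtOH libraries (blue) and OHT libraries (red), with circles for library A and triangles for library B, ordered by mean within a family. S100a4 and Lgals3bp stand apart between treatments, at 18.2 to 42.3 against 189 to 277 and at 54.7 to 124 against 381 to 393 normalised reads.

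S100a4 (NM_011311), the metastasis-associated S100 protein that binds non-muscle myosin, rose the most of the members that passed the test. Its normalised reads were 42.3 and 18.2 in EtOH libraries A and B and 277 and 189 in OHT libraries A and B. Both OHT libraries lay well above both EtOH libraries, although the EtOH libraries themselves differed by more than the OHT libraries did in proportion. In the authors' deposited table the mean went from 31.3 to 234, a log2 fold change of 2.90 (adjusted p = 3.83e-05). Limma-voom gave 2.95 ± 0.44 (SE, adjusted p = 0.00398), and 3.63 without EtOH library A. It remained called in every omission of 1 library and under each scaling and filter tried.

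Promoters are shown for S100a4 and Lgals3bp because these members rose, for S100a8 as a highly expressed gene of the same cluster that was not called, and for Anxa1 as the member called by limma-voom alone. They are RefSeq sequences of build GRCm38.p6, 250 bases before to 50 after the gene start, 5′ to 3′ on the gene's strand. Capitals mark matches, on either strand, to TATAAA (the TATA box), GAGGAAGT (a binding sequence of the myeloid factor PU.1) and AANNGAAA (a core of interferon regulatory factor sites).
S100a4, chr3:90603520-90603819, plus strand: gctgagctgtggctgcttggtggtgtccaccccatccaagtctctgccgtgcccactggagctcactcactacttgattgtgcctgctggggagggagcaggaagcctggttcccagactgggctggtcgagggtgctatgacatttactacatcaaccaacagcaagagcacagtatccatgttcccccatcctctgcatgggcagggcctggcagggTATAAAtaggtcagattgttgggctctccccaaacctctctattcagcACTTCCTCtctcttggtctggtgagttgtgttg
S100a8, chr3:90668821-90669120, plus strand: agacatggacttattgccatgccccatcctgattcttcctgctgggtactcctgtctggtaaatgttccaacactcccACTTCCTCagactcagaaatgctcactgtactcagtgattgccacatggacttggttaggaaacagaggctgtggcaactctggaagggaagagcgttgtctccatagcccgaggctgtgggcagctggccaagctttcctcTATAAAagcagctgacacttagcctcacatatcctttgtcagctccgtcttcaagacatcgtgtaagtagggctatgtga
Lgals3bp, chr11:118401910-118402209, minus strand: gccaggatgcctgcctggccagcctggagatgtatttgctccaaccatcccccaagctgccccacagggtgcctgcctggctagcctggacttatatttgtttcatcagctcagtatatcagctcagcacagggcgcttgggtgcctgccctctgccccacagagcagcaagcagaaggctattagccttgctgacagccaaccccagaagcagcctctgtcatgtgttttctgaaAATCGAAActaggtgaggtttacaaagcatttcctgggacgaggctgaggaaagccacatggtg
Anxa1, chr19:20390622-20390921, minus strand: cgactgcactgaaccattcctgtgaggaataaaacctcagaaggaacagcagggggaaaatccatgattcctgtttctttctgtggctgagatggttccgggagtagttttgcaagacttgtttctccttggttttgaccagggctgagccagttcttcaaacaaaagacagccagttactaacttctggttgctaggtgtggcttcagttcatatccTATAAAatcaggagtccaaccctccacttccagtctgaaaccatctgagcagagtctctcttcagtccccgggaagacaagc

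The TATAAA match began 31 bases before the gene start in S100a4, 30 before it in S100a8 and 32 before it in Anxa1. Such a match was found in 13.6% of all 32851 promoter windows and in 5 of the 28 windows of members (S100a4, S100a8, S100a9, Anxa1 and Anxa2). GAGGAAGT was read on the opposite strand in both S100a4, from 18 bases after the start, and S100a8, from 172 before it. It occurred in 3.20% of all windows and in 2 of the 28 windows of members. AANNGAAA occurred in 23.9% of all windows and in 6 of the 28 windows of members (S100a1, S100a5, S100a6, S100a13, Lgals9 and Lgals3bp). In Lgals3bp it began 14 bases before the start. The 28 windows, of 24 members, held a median of 4.5 CG dinucleotides against 7 over all windows, with 2 in S100a4, 3 in Lgals3bp, 3 in Anxa1 and 4 in S100a8. Anxa11 held 25 and 1 window of Anxa9 held 36. These matches describe letters only. No promoter is shown for Anxa3, Anxa6, Anxa13, Lgals1, Lgals6, Lgals12, S100a2, S100a10 or S100a14.

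The genes beside S100a4 in the cluster were nearly silent, and the abundant S100 genes farther along did not pass the test. In the gene order of RefSeq GRCm38.p6, S100a2 precedes S100a4 and S100a5 and S100a6 follow it among genes of the table. Reads of S100a2 numbered 1 in the EtOH group and 6 in the OHT group, and their ratio was 5.68 (exact 95% counting interval 0.689 to 261), within counting error of no change. S100a5 had no EtOH read and 7 OHT reads, so the exact 95% lower limit of the read ratio was 1.36, and its adjusted p in the authors' deposited table was 0.993. S100a6 (calcyclin) had normalised reads of 478 and 589 with EtOH and of 560 and 698 with OHT, and the groups overlap. The log2 fold changes in the authors' deposited table were thus 1.40, 2.90 and 2.11 for S100a2, S100a4 and S100a5 and 0.24 for S100a6, with S100a4 alone past the test.

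Between S100a1 and S100a10 the table held 20 genes, 12 of them members. Of the 8 others, 1 was called higher in the authors' deposited table, against 3.62% of all transcripts. That gene was involucrin (Ivl), a cornified-envelope protein of skin, with 5.80 and 2.60 normalised reads in the EtOH libraries and 38.6 and 46.9 in the OHT libraries. Its mean went from 5.27 to 43.7 in the authors' deposited table (log2 fold change 3.05, adjusted p = 0.00271). Trichohyalin (Tchh), a structural protein of the hair follicle, was chosen after its values were seen. It had 6.63 and 6.51 normalised reads with EtOH and 226 and 79.3 with OHT. Its adjusted p was 0.0990 in the authors' deposited table. Limma-voom called it, at 4.30 ± 0.78 (SE, adjusted p = 0.00770), at 3.49 with OHT library A left out and at 4.995 with OHT library B left out. S100a7a, which the symbol rule does not take, had 3 reads with EtOH and 10 with OHT. Of the 8 neighbours 4 had at most 3 reads in each group.

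**Figure D2:**
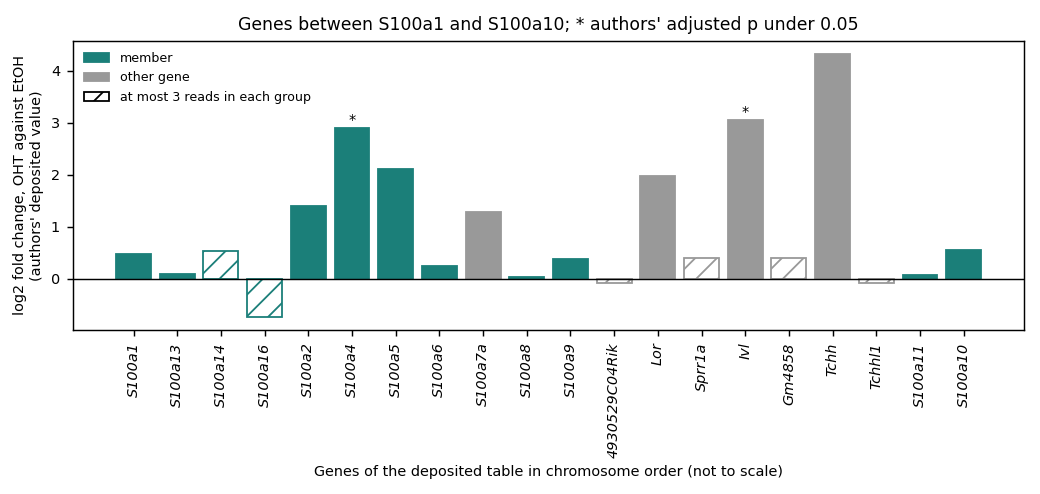
Bars give the authors' deposited log2 fold change of OHT against EtOH for the 20 genes of the table between S100a1 and S100a10, in chromosome order without scale; green bars are members, grey bars other genes, hatched bars genes with at most 3 reads in each group, and stars mark an adjusted p under 0.05. S100a4 (2.90) and Ivl (3.05) carry stars, while S100a6, S100a8 and S100a11 lie between 0.02 and 0.24.

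The calprotectin genes did not pass the test. S100a8 had 361 and 656 normalised reads in the EtOH libraries and 512 and 522 in the OHT libraries, so both OHT values fell between the EtOH values. Its log2 fold change was 0.02 in the authors' deposited table, and the limma-voom interval ran from -0.51 to 0.74 (95%). Without EtOH library A the limma-voom value was -0.34 and without EtOH library B 0.52, so its sign rests on the EtOH libraries. S100a9 was listed far lower, at 9.95 and 24.7 normalised reads with EtOH and 22.7 and 23.4 with OHT, and S100a8 had 22.3 to 36.3 times as many reads in the same library. The 2 proteins pair in the cell. The S100a9 row is NM_001281852, which is 1 of 2 curated RefSeq transcripts of the gene, so its value need not be the level of the whole gene.

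Among the other abundant S100 genes, all differences were under 1.5-fold in the authors' deposited table. S100a11, a partner of ANXA1, had 532 and 770 normalised reads with EtOH and 633 and 738 with OHT. S100a10, the partner of ANXA2 at the cell surface, had 469 and 445 with EtOH and 618 and 722 with OHT. Its groups did not overlap, and its adjusted p was 0.428 in the authors' deposited table and 0.110 by limma-voom (0.54 ± 0.21 SE). S100a13, which takes part in the export of fibroblast growth factor, had 254 and 307 with EtOH and 305 and 296 with OHT. S100a1, a calcium regulator best known in muscle, had 150.1 and 143 with EtOH and 218 and 193 with OHT (adjusted p = 0.647 in the authors' deposited table). S100a1 and S100a13 overlap by 98 bases in RefSeq GRCm38.p6 and reads carry no strand with this kit, so those in the shared stretch cannot be told apart. S100a2 lies within S100a3 in the same annotation; S100a3 was not analysed here.

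No annexin of 10 was called in the authors' deposited table, yet none had overlapping groups. In 8 of them both OHT libraries were above both EtOH libraries, and in Anxa3 and Anxa9 both were below. The gap was slight in Anxa7, with 6.63 and 5.21 normalised reads with EtOH and 6.72 and 8.93 with OHT. In Anxa2 the higher EtOH library had 1482 and the lower OHT library 1503, and Anxa13 had 0 and 4 reads in all. Beside the 51.0% of all transcripts above, groups did not overlap in 63.1% of transcripts with a mean of at least 50, with OHT above in 24.4%. The family's median log2 fold change in the authors' deposited table was 0.43, against 0.04 over all transcripts. It was 0.37 with Anxa13, which had no EtOH read, set against a floor of 3 reads over the group. Treated alike, all transcripts with more than 3 reads in a group had a median of -0.004. With 1 library left out, 6 of the 22 fitted members changed the sign of their limma-voom value in at least 1 omission (S100a8, S100a9, S100a11, S100a13, Lgals1 and Lgals2), none of them an annexin.

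Anxa1, an anti-inflammatory ligand of formyl peptide receptors, came closest to the threshold among annexins. Its normalised reads were 575 and 717 in the EtOH libraries and 1232 and 962 in the OHT libraries. Its mean went from 647 to 1098 in the authors' deposited table, a log2 fold change of 0.76 (adjusted p = 0.0648). Limma-voom gave 0.77 ± 0.22 (SE, adjusted p = 0.0447). That call was lost without EtOH library A (0.59, adjusted p = 0.0870) and without OHT library A (0.59, adjusted p = 0.409).

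Anxa4 and Anxa5, membrane-binding annexins of which ANXA5 is widely used as a probe for phosphatidylserine, had values of similar size. Anxa4 had 879 and 592 normalised reads with EtOH and 1111 and 1407 with OHT. Its log2 fold change was 0.77 in the authors' deposited table (adjusted p = 0.221). Anxa5 had 1111 and 628 with EtOH and 1291 and 1552 with OHT. That gave a log2 fold change of 0.71 in the authors' deposited table (adjusted p = 0.483). In both genes EtOH library B was the lowest of the 4 libraries. Limma-voom called neither with all libraries (adjusted p = 0.0574 and 0.0913), but called both without EtOH library A, where the log2 fold changes were 1.08 and 1.18 (adjusted p = 0.00897 and 0.00548). Without EtOH library B they were 0.51 and 0.35, and neither was called.

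Anxa2, a plasminogen-binding annexin, and Anxa11, which tethers RNA granules to lysosomes, were the most abundant annexins whose OHT values were the higher. Anxa2 had 1417 and 1482 normalised reads with EtOH and 1503 and 1734 with OHT (limma-voom log2 fold change 0.16, 95% interval -0.29 to 0.60). Anxa11 had 1215 and 1141 with EtOH and 1501 and 1633 with OHT (limma-voom 0.41, interval -0.03 to 0.85). Anxa3, abundant in neutrophils, was the abundant annexin with lower OHT values. It had 1389 and 1829 normalised reads with EtOH and 986 and 1241 with OHT. Both OHT values lay below both EtOH values, and the log2 fold change was -0.53 in the authors' deposited table (adjusted p = 0.410).

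The remaining annexins were low. Anxa6 had 23.2 to 26.0 normalised reads with EtOH and 31.9 to 35.7 with OHT. Anxa7, also called synexin, had 12 reads in the EtOH group and 16 in the OHT group. Anxa9, whose product lacks typical calcium binding, had 28 and 11 reads, a read ratio of 0.372 (exact 95% counting interval 0.167 to 0.770), with a limma-voom log2 fold change of -1.35 ± 0.61 (SE, adjusted p = 0.160). Anxa13, an annexin of epithelia, had 0 and 4 reads, within counting error of no change (exact 95% lower limit of the read ratio 0.625).

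**Figure D3:**
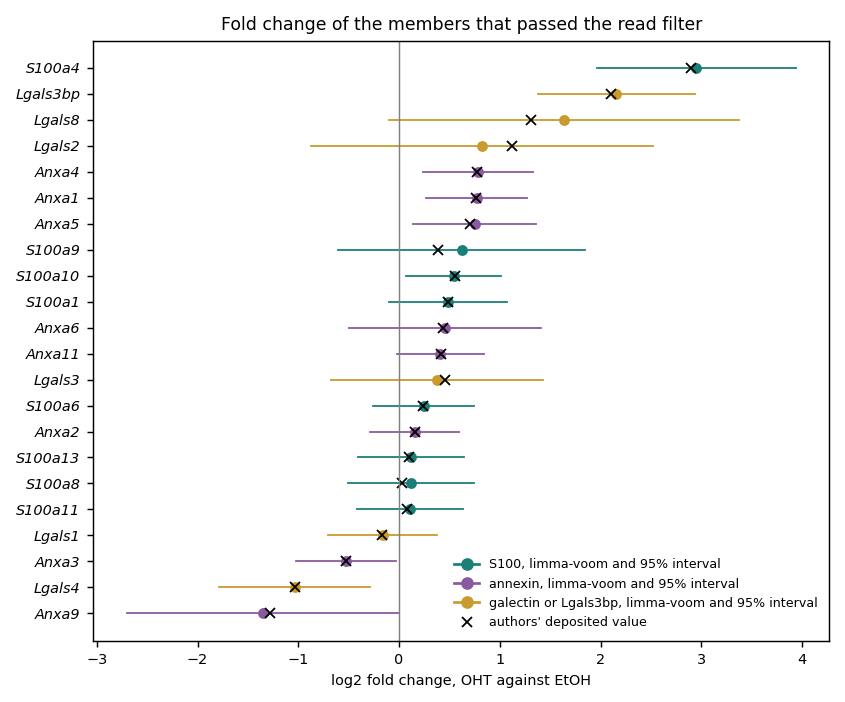
Log2 fold change of OHT against EtOH for the 22 members that passed the read filter: dots and lines give the limma-voom value and its 95% interval, coloured by family, and crosses the authors' deposited value. The intervals of S100a4 (1.96 to 3.94) and Lgals3bp (1.38 to 2.93) lie farthest above 0, and those of Lgals4 and Anxa3 lie below 0.

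Lgals3bp (NM_011150), a secreted scavenger-receptor-domain glycoprotein that binds galectin-3 (Mac-2), rose, while no galectin itself passed the test. Its normalised reads were 124 and 54.7 in the EtOH libraries and 393 and 381 in the OHT libraries. The OHT libraries were close to each other and both above the EtOH libraries, of which B was the lower. The mean went from 90.2 to 388 in the authors' deposited table, a log2 fold change of 2.10 (adjusted p = 8.97e-07). Limma-voom gave 2.16 ± 0.35 (SE, adjusted p = 0.00478), and 2.81 without EtOH library A. It remained called in every omission of 1 library and under each scaling and filter tried.

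Of the 9 galectins none was called in the authors' deposited table, and 4 had a positive and 5 a negative log2 fold change, with a median of -0.08. Their groups did not overlap in 4 of 9, with OHT above in 2 and below in 2, where 51.0% of all transcripts did not overlap. Lgals1, a dimeric galectin that crosslinks cell-surface glycoproteins, was by far the most abundant. It had 753 and 1061 normalised reads with EtOH and 690.4 and 919 with OHT, and the groups overlap (limma-voom -0.16, 95% interval -0.70 to 0.38). A long non-coding gene overlaps Lgals1 by 1271 bases in RefSeq GRCm38.p6, so unstranded reads there may belong to either gene.

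Lgals4, a galectin of the gut lining with a pair of sugar-binding domains, had lower OHT values. Its normalised reads were 112 and 145 with EtOH and 52.9 and 71.4 with OHT, so the groups did not overlap. The log2 fold change was -1.03 in the authors' deposited table (adjusted p = 0.131) and -1.04 ± 0.34 by limma-voom (SE, adjusted p = 0.0649). With EtOH library A left out, limma-voom called it lower (-1.25, adjusted p = 0.0316). Lgals6, a close copy of Lgals4 with no entry of that name in RefSeq GRCm38.p6, had 15 reads in the EtOH group and 4 in the OHT group, and their ratio was 0.252 (exact 95% counting interval 0.0609 to 0.792). Whether reads of the 2 copies were separable is not given in the sources used here, so both values are uncertain.

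Lgals2, a galectin of the gut, moved the most of the fitted members when 1 library was left out. Its normalised reads were 12.4 and 28.6 with EtOH and 15.1 and 77.0 with OHT, and the groups overlap. A single library, OHT library B, set its log2 fold change of 1.12 in the authors' deposited table (adjusted p = 1). Limma-voom gave 0.83 ± 0.76 (SE), -0.22 without OHT library B and 2.09 without OHT library A, where it was called (adjusted p = 0.0184).

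Lgals3, the macrophage antigen Mac-2 and the binding partner of LGALS3BP, was listed at only 24.4 with EtOH and 33.4 with OHT in the authors' deposited table (adjusted p = 1). The normalised reads were 23.2, 23.4, 23.5 and 41.3 in EtOH A, EtOH B, OHT A and OHT B. The row is NM_001145953, 1 of 2 curated transcripts of the gene. Lgals8, which marks damaged endosomes, had 11 and 29 reads, a read ratio of 2.49 (exact 95% counting interval 1.21 to 5.53), and an adjusted p of 0.183 by limma-voom. Without EtOH library A limma-voom called Lgals8 higher (2.84, adjusted p = 0.0396), on 1 EtOH read in the library left. With all libraries its limma-voom value was 1.64, and with EtOH library B left out it was 0.69 (adjusted p = 0.542). Lgals9, a ligand of the checkpoint receptor TIM-3, had 10 and 12 reads.

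How many curated transcripts a gene has went together with its listed level. The 21 members with 1 curated RefSeq transcript in GRCm38.p6 had a median EtOH mean of 282 in the authors' deposited table, and the 11 members with several had one of 6.99. Over all symbols these medians were 133 for 8789 symbols with 1 transcript and 31.8 for 6174 with several in the authors' deposited table. Anxa4 (737) was the only member with several transcripts above 100 in the EtOH column of the authors' deposited table. S100a9, Lgals3, Lgals8, Lgals9, Anxa6 and Anxa7 are all among the 11, and a low value there does not show a silent gene. How reads shared between transcripts were counted is not given in the sources used here, and its part in these levels was not tested.

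Per length of transcript, S100a11 had the highest mean of the members with both treatments, and Anxa3 moved the most places down among the abundant ones. On the scale of the authors' deposited mean per kilobase of the matching GENCODE M21 transcript, S100a11 stood at 1276 with EtOH and 1344 with OHT and Lgals1 at 1135 and 1007. S100a8 (1048 and 1067), Anxa3 (1010 and 699) and Anxa2 (1002 and 1119) came next with EtOH by the authors' deposited means. With OHT, S100a10 (980), S100a6 (862) and Anxa5 (822) stood above Anxa3 by the authors' deposited means. S100a4 moved from 62.9 to 470 per kilobase of the authors' deposited means, from below S100a1 (218 and 305) to above it. Lgals3bp moved from 38.7 to 166 on the same scale of the authors' deposited means.

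Genes that act with the families were read from 7 lists of receptors, ligands and related binding proteins, chosen with earlier results of these data known. The authors' deposited table called 11 of 72 measured genes higher and 0 lower. Limma-voom with all libraries also called 0 lower, and 1 was called lower in each omission of a library. Among all symbols in that table, 5.97% were called, 3.94% higher and 2.02% lower. The lists' median was 0.47 against 0.04 over all symbols in the authors' deposited table. Limma-voom tested 63 of the 72 and called 15 higher, where 9.72% of all tested transcripts were called higher. With 1 library left out, the count was lowest without OHT library A and highest without EtOH library A. The share of all transcripts called was lowest and highest in the same omissions.

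Genes that recognise or expose phosphatidylserine, the lipid that annexins bind, held the most calls. Of 11 measured, 5 rose in the authors' deposited table and the other 6 had positive log2 fold changes, with a median of 1.44. They were the bridging proteins Gas6 (12.6-fold) and Pros1 (7.63-fold), the TAM-family receptors Mertk (13.2-fold) and Tyro3 (2.15-fold), and the scavenger receptor Stab1 (3.97-fold) in the authors' deposited table. Gas6 had 4.15 and 9.11 normalised reads with EtOH and 106 and 86.0 with OHT. Mertk had 5.80 and 0 with EtOH and 63.0 and 40.2 with OHT. Pros1 had 36.5 and 14.3 with EtOH and 230.1 and 172 with OHT. In all 5 genes the groups stood apart. With EtOH library A left out, limma-voom put Gas6 at 3.31, Pros1 at 3.76 and Mertk at 6.31 on the log2 scale, against 3.92, 3.01 and 4.68 with all libraries. With EtOH library B left out Mertk stood at 3.06. Limma-voom lost Tyro3 when either OHT library was left out (adjusted p = 0.0605 for A and 0.0779 for B).

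Of 8 S100 receptors measured, 2 rose in the authors' deposited table, the adhesion molecules Alcam (4.46-fold) and Mcam (36.9-fold), both described in human cells as receptors of S100A8 and S100A9. Alcam had 150.1 and 84.6 normalised reads with EtOH and 538 and 518 with OHT. Mcam had 3.32 and 0 with EtOH and 121 and 78.1 with OHT. Limma-voom put Mcam at 5.99 on the log2 scale, at 7.26 with EtOH library A left out and at 4.74 with EtOH library B left out. The classical receptors were not called: Ager had 10.2 and 7.55 and Tlr4 777 and 1123 in the authors' deposited table. The Ager row is a non-coding RefSeq transcript, so its value need not be the level of the whole gene. Of 8 annexin partners 2 rose in the authors' deposited table. Ahnak, a giant scaffold bound by S100A10 and ANXA2, rose 3.71-fold, and Myof, a ferlin of membrane repair, rose 8.25-fold in the authors' deposited table. Ahnak had 607 and 195 normalised reads with EtOH and 1486 and 1498 with OHT, and Myof had 113 and 35.2 with EtOH and 663 and 573 with OHT. Without EtOH library A the limma-voom values of Ahnak and Myof were 2.93 and 4.11, and without EtOH library B 1.30 and 2.45, against 2.04 and 3.18. Plau (urokinase), whose product makes plasmin, was called by limma-voom alone, with 34.0 and 10.4 normalised reads with EtOH and 113 and 244 with OHT. Its limma-voom value was 2.94 (adjusted p = 0.0129), and 2.22 to 3.86 with 1 library left out, the lowest without EtOH library B and the highest without EtOH library A. The formyl peptide receptor Fpr2 was not called, at 192 and 401 in the authors' deposited table.

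Of 12 galectin ligands and partners none was called in the authors' deposited table, with the lysosomal glycoprotein Lamp1 at 2015 and 2614 and the integrin Itgb1 at 1755 and 2131. Limma-voom with all libraries tested 9 of the 12 and called none. Of 12 enzymes that branch or cap glycans, the sugars galectins read, 2 rose in the authors' deposited table, both sialyltransferases. St3gal1 rose 2.69-fold and St3gal6 10.4-fold in the authors' deposited table. St3gal1 had 319 and 185 normalised reads with EtOH and 576 and 785 with OHT, and St3gal6 had 3.32 and 0 with EtOH and 34.4 and 20.1 with OHT. Limma-voom also called Mgat4a, a branching enzyme, at 0.86 (adjusted p = 0.0415), but not with EtOH library B (0.0755) or OHT library A (0.395) left out. St3gal6 stood at 4.14 by limma-voom, at 5.39 with EtOH library A left out and at 2.87 with EtOH library B left out. Mgat5, which makes the branch that galectins favour, was not called, at 576 and 466 in the authors' deposited table.

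Of 13 other EF-hand calcium sensors none was called in the authors' deposited table or by limma-voom with all libraries, and their median log2 fold change was -0.02 in the authors' deposited table. The authors' deposited table gave Calm3, a calmodulin gene, a mean of 1665 with EtOH and of 1650.5 with OHT. Gca (grancalcin), a sensor of neutrophils, was chosen after its values were seen. It had 589.6 and 832 normalised reads with EtOH and 498 and 307 with OHT. The log2 fold change was -0.82 in the authors' deposited table (adjusted p = 0.458). Both OHT libraries lay below both EtOH libraries, and Gca was called lower by limma-voom in the omissions of EtOH library A and of OHT library A. Of 11 other calcium-dependent phospholipid binders 1 rose in the authors' deposited table, Myof again. Limma-voom also called Prkca, a kinase, at 1.37 (adjusted p = 0.0205) and the copine Cpne2 at 0.79 (adjusted p = 0.0296). It lost Prkca with OHT library B left out (0.0877) and Cpne2 with OHT library A (0.165) or B (0.173) left out. For Prkcb, another kinase, the authors' deposited table gave 1501 with EtOH and 1562 with OHT.

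**Figure D4:**
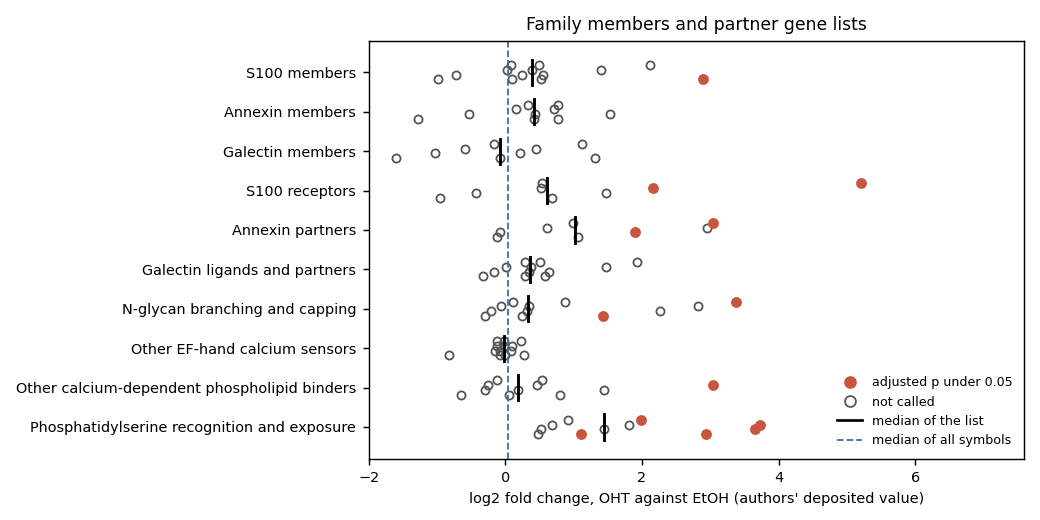
Each point is the authors' deposited log2 fold change of a gene in the 3 families and the 7 partner lists, filled where the adjusted p was under 0.05; black bars are list medians and the dashed line is the median of all symbols (0.04). The phosphatidylserine list lies highest, with a median of 1.44 and 5 of 11 genes called, and the EF-hand list lies at -0.02.

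Of the myeloid marker lists, the monocyte and macrophage list held the most calls in the authors' deposited table. None of 7 leukaemic myeloid identity genes was called there, and limma-voom with all libraries called none of the 6 it tested. The identity genes Spi1 and Cebpa were abundant in every library, while the listed transcript of Kit had 4 reads with EtOH and 8 with OHT. Each marker stands for a single transcript, so a low value need not be the level of the whole gene. Summed over 8 measured monocyte and macrophage markers, normalised reads were 2630 and 986 in EtOH libraries A and B and 5017 and 5604 in OHT libraries A and B. EtOH library B was the lowest there, as it was for S100a4 and Lgals3bp. It was also the lowest in the epithelial and endothelial sums and in the sum of every partner list except the EF-hand sensors. In the identity, neutrophil, stromal, T and NK and erythroid sums another library was the lowest. Of the 8, 4 rose in the authors' deposited table (Marco and the complement genes C1qa, C1qb and C1qc) and none fell. The most abundant were Emr1 (1259 and 2846), Cd68 (366 and 1017) and Csf1r (177 and 1110), none called in the authors' deposited table. Limma-voom with all libraries called Cd68 and Csf1r but not Emr1. Summed neutrophil markers were 6683 and 7999 with EtOH and 10954 and 10632 with OHT, with Mmp8 and Mmp9 of 7 higher in the authors' deposited table. Without these 2 genes the sums were 2188 and 4182 with EtOH and 3375 and 2337 with OHT, which overlap. Ltf was listed at 639 and 316 and Cebpe at 1079 and 895 in the authors' deposited table. Ngp (982 and 1103), Elane (320 and 333) and Camp (171 and 214) went the other way there. None of these was called. Limma-voom lost Mmp8 with EtOH library B (adjusted p = 0.0664) or OHT library B (0.0589) left out. Whether more cells of a type or more RNA per cell stood behind such sums cannot be told apart in bulk samples, and the part of these cells in the rises of S100a4 and Lgals3bp was not tested.

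Markers of non-myeloid cells differed widely in level. Of 5 fibroblast and stromal markers, 4 did not exceed 3 reads in either group. Col1a1 rose in the authors' deposited table, from 5.33 to 30.3, although limma-voom lost it without OHT library A (adjusted p = 0.0572). The stromal sums were 3.32 and 10.4 with EtOH and 34.4 and 30.1 with OHT. Of 5 epithelial markers Cdh1 rose in the authors' deposited table, and the sums were 276 and 257 with EtOH and 750 and 1358 with OHT, with Krt5 at 0 and 2 reads. Limma-voom called 3 of the 4 fitted, Cdh1, Krt18 (69.1 and 255 in the authors' deposited table) and Epcam (37.8 and 161), also in each omission of a library. Endothelial sums were 177 and 49.5 against 230.1 and 414, with none of 4 called in the authors' deposited table. In the authors' deposited table Vwf had means of 89.3 and 299, and limma-voom called it (1.87, adjusted p = 0.0443). Its value was 3.01 with EtOH library A left out and 0.95, not called, with EtOH library B left out. Pecam1, the other endothelial marker that was fitted, had a lower mean with OHT, but its groups overlap. EtOH libraries A and B held 33.2 and 14.3 normalised reads of Pecam1, and OHT libraries A and B held 10.1 and 23.4. Limma-voom did not call Pecam1 (-0.63 ± 0.61 SE, adjusted p = 0.523). Kdr had 0 and 17 reads and Cdh5 3 and 0. Sums of 4 T and NK markers were 6.63 and 19.5 against 24.4 and 22.3, and those of 2 erythroid markers 11.6 and 10.4 against 10.9 and 6.70, with none called in the authors' deposited table. Their part in the results was not tested.

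**Figure D5:**
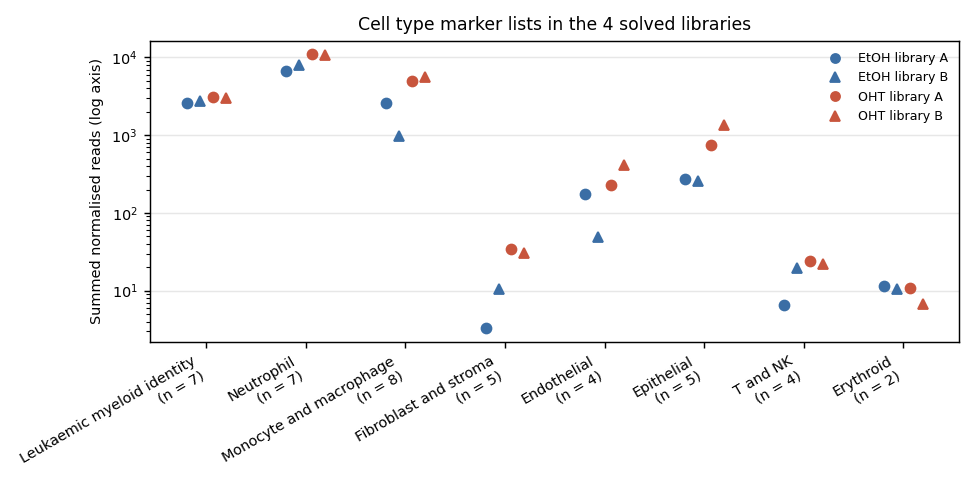
Summed normalised reads (log axis) of each cell type marker list in the EtOH libraries (blue) and OHT libraries (red), with circles for library A and triangles for library B. The monocyte and macrophage sums are 986 to 2630 with EtOH and 5017 to 5604 with OHT, and the T and NK and erythroid sums stay under 25 in every library.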

How the data were processed

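Per the labels' protocols, an RNeasy kit gave the RNA and the TruSeq RNA kit (version 2) the libraries. TopHat, DESeq and build mm9 appear in the submitters' processing notes without versions or roles; the counting program is not given in the sources used here. The deposited file is the authors' own comparison of 18061 RefSeq transcripts: signal columns of mean normalised reads per group, their ratio (fold change), its log2, and a p-value with an adjusted p-value. The adjusted p equals a Benjamini-Hochberg adjustment over the deposited table to within 2.63e-06. A call is an adjusted p under 0.05 there.

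The members and lists were chosen with earlier results of these data known. Each deposited mean was solved as whole reads of 2 libraries, plus 1 read each, divided by 2 size factors. The solution was unique for 100% of the 18061 means in both groups, against 0.0831% (EtOH) and 0.0941% (OHT) of means moved by up to 0.1%. Median-of-ratios size factors of the solved reads plus 1 equalled the solved ones (1.206, 0.768, 1.191 and 0.896). Library A is the one with the larger factor. Limma-voom (limma 3.58.1, R 4.3.3) was fitted to 11338 transcripts, those reaching 10 reads in any 2 libraries, with group as the only term and Benjamini-Hochberg adjustment, and was tested on simulated data. It has 2 residual degrees of freedom, and 1 where a library is left out, the lone library then being assumed to vary like the other group. Alternatives were other scalings, filters, transcript choices and thresholds, and each library left out.

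Exact 95% read-ratio intervals and the floor of 3 reads per group cover counting error only. Symbols in lists stand for their transcript with the highest mean. Values in full were given for called members and the 2 most abundant others of each family, and further members were added. Of 33 members, 32 matched RefSeq GRCm38.p6, 24 had a promoter there and 31 a GENCODE M21 transcript length; gene coordinates of the table itself are not used, since mm9 and GRCm38.p6 differ.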

Additional observations from a re-analysis of the deposited data

How the results depend on the processing

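The calls of S100a4 and Lgals3bp held under every alternative, with limma-voom log2 fold changes of 2.45 to 3.63 and 1.64 to 2.81. The count of members called, 2 in the authors' deposited table, was 4 with total-read or upper-quartile scaling and 5 without a read filter, all higher, the added genes being Anxa1 and Anxa4, and Anxa5 without a filter. Without 1 library at a time it ran from 3 to 6, with 3 to 5 higher and 0 to 1 lower (Lgals4, without EtOH library A). For partner genes, 11 in the authors' deposited table, it ran from 13 to 24, with 12 to 23 higher and 1 lower in each omission (Gca or Cd69). Of the S100 cluster neighbours limma-voom called 2 (Ivl and Tchh) with all libraries and in each omission, against 1. The limma-voom count of lower transcripts, 623, ran from 133 without OHT library A to 1075 without EtOH library A. Of the values of single members under these alternatives, 218 kept their side of the threshold and 18 passed it newly. The share of all transcripts called also moved with the setting, as given above, and these counts are to be read beside it. No paired analysis was possible because the deposited columns carry no replicate numbers. With 3841243 to 6255320 reads per library, members with few reads could show only large changes, and the depth of EtOH library B is the least.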
